A study of Saccharomyces cerevisiae with 18 samples.

Results

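The 41 genes described here encode the peroxisome biogenesis machinery and the enzymes, transporters and regulators of fatty acid oxidation of the budding yeast Saccharomyces cerevisiae. They were chosen by name, and all 41 were found among the 6692 features of the deposited count tables. All 41 passed the filter on low counts, which left 5487 genes tested. By role, 18 members are enzymes or transporters, 21 take part in peroxisome biogenesis or inheritance, and 2 are transcription factors.

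The study compared BY4741, a wild type laboratory strain, with its derivative ZCZ01, in which the protein phosphatase gene PPZ1 is driven by the galactose-inducible GAL1-10 promoter. Both strains were grown in raffinose, galactose was added to 2%, and RNA was taken 0.5, 2 and 4 h later in 3 experiments, which gave 3 libraries of each strain at each time and 18 in all. Every group had thus been moved to galactose, and no fatty acid was supplied in the medium. The comparison asks how messenger RNA levels change as Ppz1 accumulates in ZCZ01. The paper states that at 0.5 h the Ppz1 protein was only barely above its wild type level. No library was taken before galactose, so a strain difference at 0.5 h cannot be told apart from one present before induction. ZCZ01 is a single engineered strain, so that its construction and Ppz1 level cannot be told apart.

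Yeast oxidises fatty acids only in peroxisomes. Fatty acids are activated to acyl-CoA, carried over the membrane by the Pxa1-Pxa2 transporter, and shortened in rounds by the oxidase Pox1, the multifunctional enzyme Fox2 and the thiolase Pot1, and the acetyl-CoA leaves by the carnitine shuttle or the glyoxylate cycle. The enzymes enter through receptors that dock at the membrane, release their cargo and are ubiquitinated and pulled back out, steps carried out by the Pex proteins. The genes are repressed by glucose and strongly induced by oleate through Oaf1 and Pip2, a pair of zinc cluster proteins that bind the oleate response element, and Adr1 acts with them on many of the same promoters.

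The oleate response element was searched for on both strands as CGGNNNTNA, 9 to 12 further bases and CCG. Within 250 bases before and 50 bases after the start codon, 12 of the 41 members held it (29.3%), against 54 of 5983 genes searched in all (0.903%). In the 500 bases before the start codon, a window added after the data were seen, 17 members held it (41.5%), against 113 of all genes (1.89%). The 17 were POX1, FOX2, POT1, ECI1, DCI1, SPS19, TES1, IDP3, FAA2, PXA2, CRC1, YAT1, PEX5, PEX13, PEX6, PEX11 and PIP2. A match is a description of the letters and does not show that a factor binds there.

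The sites of 9 members are shown because the strain or time comparisons below turn on these genes, or because the gene encodes the regulator itself (PIP2). Coordinates and bases are from the R64 reference genome, each site is written 5′ to 3′ on the strand named, and the capitals mark the fixed letters of the motif.
POX1, chrVII:107883-107905, plus strand, 253 to 275 bases before the start codon: CGGtcaTtAgcggctaatagCCG
POT1, chrIX:41610-41632, minus strand, 166 to 188 bases before the start codon: CGGggaTaAtagtattaacaCCG
FOX2, chrXI:457305-457325, plus strand, 251 to 271 bases before the start codon: CGGcgtTaAcaaatttccCCG
ECI1, chrXII:707191-707213, minus strand, 151 to 173 bases before the start codon: CGGgcaTaAgaaatattattCCG
SPS19, chrXIV:259412-259435, plus strand, 143 to 166 bases before the start codon: CGGcgtTaAgtatatcaaactCCG
PXA2, chrXI:89035-89058, minus strand, 249 to 272 bases before the start codon: CGGcgtTaAttacaactatcaCCG
PEX5, chrIV:950388-950409, minus strand, 154 to 175 bases before the start codon: CGGagtTaAtcgcgatgatCCG
PEX11, chrXV:48756-48778, minus strand, 113 to 135 bases before the start codon: CGGcatTtAtctcggagaacCCG
PIP2, chrXV:1023348-1023368, minus strand, 136 to 156 bases before the start codon: CGGaacTaAatataatctCCG

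The sites of POX1, POT1 and PIP2 in this set, and that of DCI1, match the motif on either strand. POX1 and FOX2 each held another site within 500 bases. All of the sites lay between 108 and 328 bases before the start codon, with 9 to 12 bases between the fixed parts. The stress response element AGGGG and the Mig1 core (GCGGGG, or the same with GT, CC or CT as the first letters), searched for on both strands, were about as frequent among members as elsewhere in the main window. They were present in 10 and 6 members (24.4% and 14.6%), against 21.6% and 11.7% of all genes searched.

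**Figure D1:**
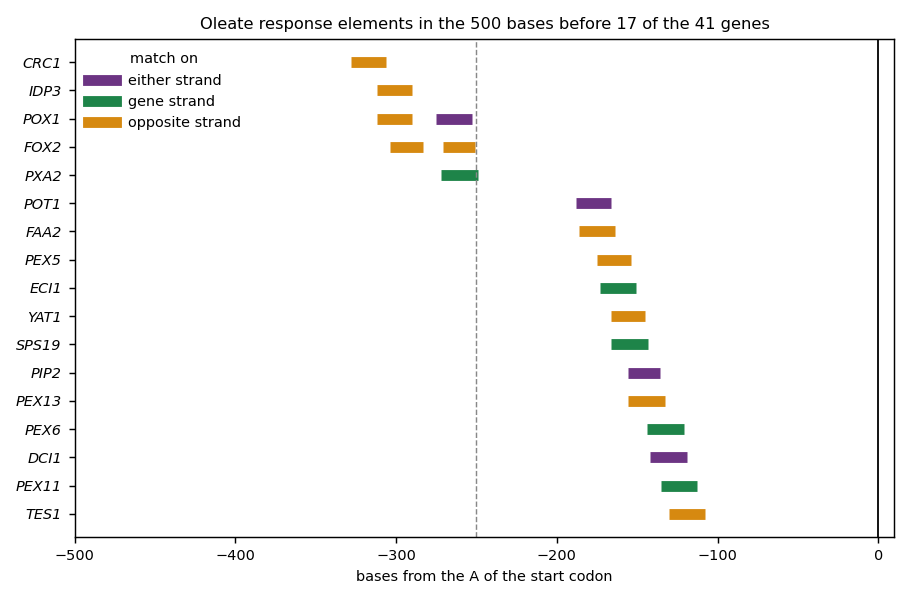
Position of each match to the oleate response element in the 500 bases before the start codon of 17 members, in bases from the A of the start codon. Bars show the length of each match and colors the strand on which it reads, and the dashed line is the limit of the main search window at 250 bases, beyond which the sites of POX1, FOX2, IDP3 and CRC1 lie entirely and that of PXA2 nearly so.

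The libraries held between 955972 and 1920193 counts (median 1647535). Levels are given below as CPM, counts in each 1000000 counts of the library, scaled by edgeR's trimmed mean method, always in the order of experiments 1, 2 and 3. A gene was called at an adjusted p under 0.05 in edgeR's quasi-likelihood test, adjusted by the Benjamini-Hochberg method over all 5487 genes. Each pair of strains of the same experiment and time was a block. PPZ1 itself was at 4.68 to 10.9 CPM in wild type and at 21.4 to 516 CPM in ZCZ01, and no wild type library reached any ZCZ01 library. Its mean in ZCZ01 was 261 CPM at 0.5 h, 319 CPM at 2 h and 70.5 CPM at 4 h, so its messenger RNA was lowest at the last time. Of the marker genes that BY4741 lacks wholly or in part, LEU2 and MET17 held at most 1 and 0 counts in any library, while HIS3 held 29 to 139 counts in wild type and 62 to 286 in ZCZ01, and URA3 held 2 to 27 and 0 to 20. MF(ALPHA)1 and STE3, which mark cells of the opposite mating type, held 0 to 2 and 0 to 6 counts in wild type and 0 to 35 and 1 to 48 in ZCZ01, and their part in the results was not tested. Experiments 2 and 3 were close to each other in every group, with a chi-square of 1.11 to 2.57 for each degree of freedom against 20.8 to 45.3 for either of them and experiment 1, and experiment 3 was 1.32 to 1.34 times as deep as experiment 2 in every group. The p values treat them as separate replicates and can therefore be too small, and counts of called genes with experiments 2 and 3 summed as 1 replicate are given beside the main ones. For 12 of 18 libraries the title of the sample and the name of its library carry different times, and the times in the library names were used. With the times of the titles, 0, 2 and 1 of all genes and 0 members passed in edgeR at 30, 120 and 240 min, and 2, 4 and 3 members had an unadjusted p under 0.05.

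At 0.5 h the members that passed the test were all lower in ZCZ01, and most of them encode enzymes or transporters of beta-oxidation. In bulk RNA a lower level in all cells and a lower share of cells with the transcript cannot be told apart. The 5 called were POX1, ECI1, SPS19, PXA1 and PEX2, that is 5 of 41 lower and 0 higher, where 2.52% of all genes tested were called lower and 4.92% higher. No member reached an unadjusted p under 0.05 in the higher direction, and DESeq2 also called 0 members higher and 5 lower. Of the 41 estimates, 35 lay below 0, with a median log2 fold change of -0.31 against 0.01 over all genes. All 17 members with an oleate response element within 500 bases were among those 35, with a median of -0.44, and the 24 others had a median of -0.23. The window behind this split was added after the data were seen, and the difference between these medians was not tested. With experiments 2 and 3 summed, 0 members passed in either direction at this time (0.307% of all genes lower, 0.975% higher), with 6 lower and 0 higher at an unadjusted p under 0.05 and a median of -0.38. Without experiment 1, 2 or 3 the members called lower numbered 8, 0 and 1. Here and below, such counts are given without the share of all genes called in the same fits. They show how the calls change when 1 experiment is left out. Each such fit also holds fewer libraries, so a call can be lost while its estimate hardly changes. A lost call therefore does not by itself show that the result rests on the experiment left out. The fit without experiment 1 holds only experiments 2 and 3, which were close to each other, so its p values can be too small.

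POX1 encodes acyl-CoA oxidase, the first enzyme of the cycle. At 0.5 h it was at 16.7, 32.2 and 31.4 CPM in wild type and at 3.71, 15.8 and 12.4 CPM in ZCZ01. All 3 ZCZ01 libraries were below the lowest wild type library (log2 fold change -1.42, SE 0.38, adjusted p = 0.0282). At 2 h the order was the opposite, with 2.56, 7.19 and 6.01 CPM in wild type and 9.41, 13.6 and 8.65 CPM in ZCZ01. The ranges again did not overlap, but the difference did not pass the test (log2 fold change 1.02, SE 0.44, adjusted p = 0.0731). The 4 h difference did not pass it either (log2 fold change 0.94, SE 0.45, adjusted p = 0.109), with 3.61 to 6.73 CPM in wild type and 6.83 to 11.2 CPM in ZCZ01. The call at 0.5 h was lost without experiment 2 (-1.68, adjusted p = 0.183) and without experiment 3 (-1.51, adjusted p = 0.31). Its ratio of ZCZ01 to wild type changed, by 2.45 on the log2 scale from 0.5 to 2 h (SE 0.58, adjusted p = 0.00447).

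ECI1 and SPS19 encode the isomerase and the dienoyl-CoA reductase that prepare unsaturated fatty acids for the cycle. ECI1 at 0.5 h was at 72.3, 82.4 and 87.6 CPM in wild type and at 24.7, 31.6 and 44.9 CPM in ZCZ01 (log2 fold change -1.28, SE 0.26, adjusted p = 0.00587). The ranges did not overlap, and at 2 and 4 h they did. ECI1 overlaps PUT7 on the opposite strand, and the counting of reads may not have used strand, which no source used here states. SPS19 at 0.5 h was at 128, 116 and 102 CPM in wild type against 29.1, 57.0 and 60.2 CPM in ZCZ01 (log2 fold change -1.29, SE 0.26, adjusted p = 0.00627). At 2 h SPS19 was instead called higher in ZCZ01 (log2 fold change 0.75, SE 0.28, adjusted p = 0.0418), at 29.5, 30.4 and 33.1 and 79.2, 39.4 and 43.3 CPM, again without overlap. Summing experiments 2 and 3 gave 0.5 h values of -1.33 (adjusted p = 0.0727) for ECI1 and -1.47 (adjusted p = 0.0612) for SPS19. The call of ECI1 was lost without experiment 2 (-1.26, adjusted p = 0.0617) and without experiment 3 (-1.48, adjusted p = 0.0814), and that of SPS19 without experiment 2 (-1.44, adjusted p = 0.0661). The higher level of SPS19 at 2 h did not pass without experiment 1 (0.42, adjusted p = 0.135), without experiment 2 (0.94, adjusted p = 0.082) and without experiment 3 (0.98, adjusted p = 0.062).

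PXA1, which encodes a subunit of the transporter that brings long-chain fatty acids into the peroxisome, was at 37.8, 84.2 and 70.2 CPM in wild type and 23.5, 24.5 and 33.7 CPM in ZCZ01 at 0.5 h. The wild type libraries were all higher, although experiment 1 stood below the others (log2 fold change -1.17, SE 0.26, adjusted p = 0.0116). This difference was lost without experiment 2 (-0.90, adjusted p = 0.249) and without experiment 3 (-1.25, adjusted p = 0.155). At 4 h the order of the groups was reversed without passing the test (log2 fold change 0.69, SE 0.27, adjusted p = 0.0509). No oleate response element with these letters was found in the 500 bases before PXA1.

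POT1, the thiolase gene, had the lowest estimate of all members at 0.5 h and did not pass the test there (log2 fold change -1.60, SE 0.54, adjusted p = 0.109). It was at 42.8, 51.0 and 62.2 CPM in wild type and 8.66, 19.0 and 26.6 CPM in ZCZ01, so that no ZCZ01 library reached the wild type range. At 4 h it was called higher in ZCZ01 (log2 fold change 2.50, SE 0.66, adjusted p = 0.0111), with 9.62, 1.92 and 4.30 CPM in wild type and 35.4, 29.0 and 27.3 CPM in ZCZ01. The wild type values at 4 h rest on 16, 2 and 6 counts. Summing those of experiments 2 and 3 gave 2.44 (adjusted p = 0.0962), and the call was also lost without experiment 2 (2.20, adjusted p = 0.0857) and without experiment 3 (2.49, adjusted p = 0.108). POT1 overlaps SMU2 on the opposite strand.

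**Figure D2:**
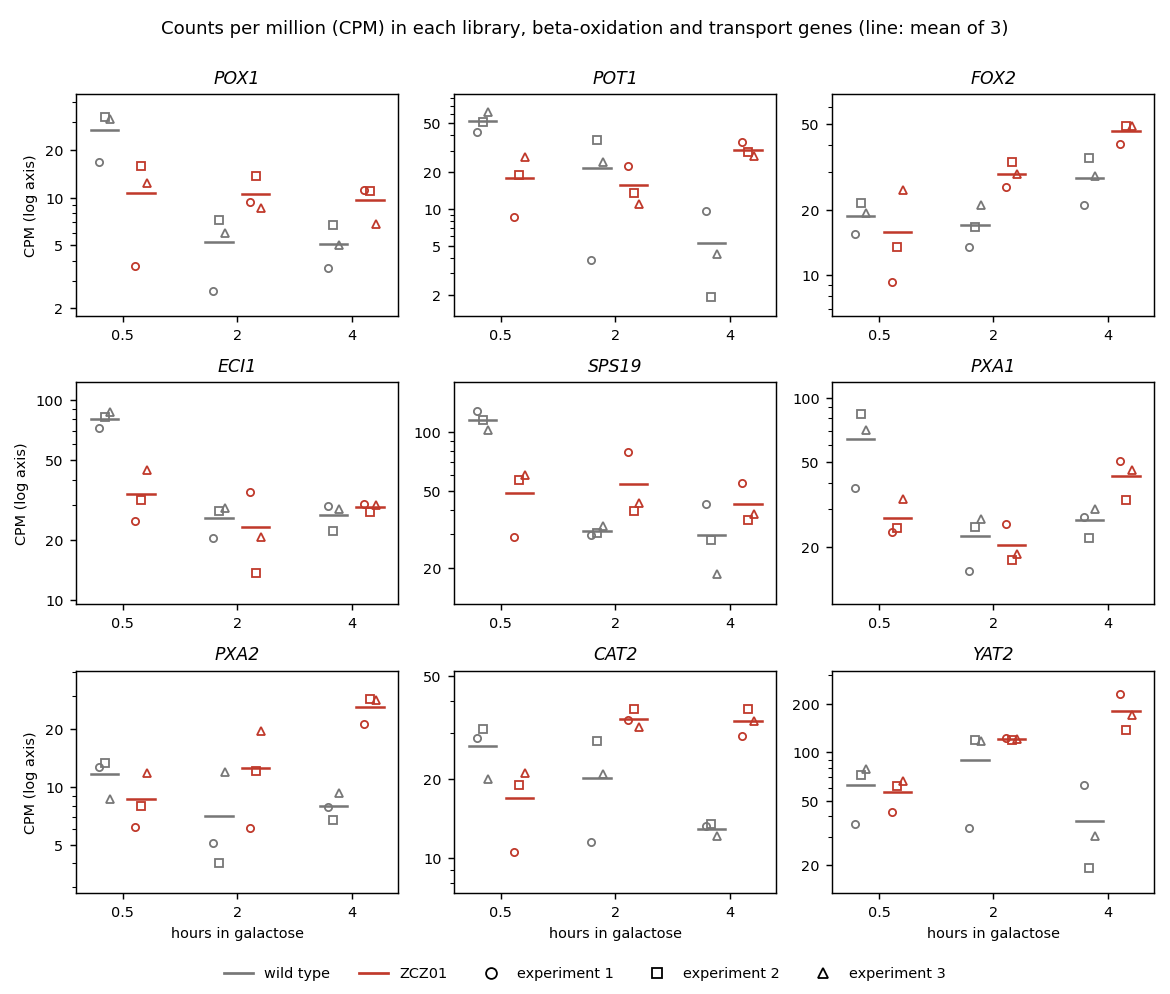
CPM (log axis) of 9 beta-oxidation and transport genes in each of the 18 libraries by hours in galactose, with wild type in grey, ZCZ01 in red, symbols for the 3 experiments and lines for group means. At 0.5 h the ZCZ01 libraries of POX1, POT1, ECI1, SPS19 and PXA1 lie below all wild type libraries, and at 4 h those of POX1, POT1, FOX2, PXA1, PXA2, CAT2 and YAT2 lie above them.

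Within wild type, POX1, SPS19, ECI1 and PXA1 fell between 0.5 and 2 h. The log2 fold change was -2.34 (SE 0.41, adjusted p = 3.5e-04) for POX1, -1.88 (SE 0.30, adjusted p = 1.8e-04) for SPS19, -1.65 (SE 0.27, adjusted p = 1.9e-04) for ECI1 and -1.50 (SE 0.29, adjusted p = 0.00104) for PXA1. PEX30, encoding a membrane protein of the endoplasmic reticulum at sites of peroxisome formation, was the fifth member to fall (log2 fold change -0.72, SE 0.15, adjusted p = 0.00234). FAA4, an acyl-CoA synthetase gene, was the 1 member that rose (log2 fold change 1.11, SE 0.19, adjusted p = 2.8e-04). Summing experiments 2 and 3 left 4 members that fell and 1 that rose (2.64% and 4.04% of all genes), and PEX30 was then at -0.75 (adjusted p = 0.0699). Among all genes in the main test 9.37% fell and 11.2% rose over this interval, and the members' median was -0.31 against 0.01. These values use the same wild type libraries at 0.5 h as the strain comparison, so these comparisons are not independent of each other. Without experiment 1, 2 or 3 the members that fell numbered 12, 4 and 4, and those that rose 3, 1 and 0.

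In ZCZ01 none of those 5 genes passed the test over the same interval, and their values are given for comparison. They were 0.06 for POX1, 0.10 for SPS19, -0.52 for ECI1, -0.39 for PXA1 and -0.18 for PEX30. From 0.5 to 2 h 6 members rose in ZCZ01 (FOX2, IDP3, FAA1, FAA4, CAT2 and PEX4, which encodes the ubiquitin-conjugating enzyme of receptor recycling) and 2 fell (PEX14 and PEX2). Among all genes 16.6% rose and 19.2% fell, so neither direction was more frequent among the members. Summing experiments 2 and 3 left 1 rise, that of PEX4, 0.98 (adjusted p = 0.0486), and 0 falls, with 2 members lower at an unadjusted p under 0.05 (7.08% and 7.92% of all genes rose and fell). The other calls were lost, at an adjusted p of 0.0535 for CAT2, 0.0549 for FOX2, 0.0726 for FAA1, 0.0743 for PEX14, 0.0782 for IDP3, 0.12 for PEX2 and 0.148 for FAA4. Scaling by total counts gave 9 and 2 members, with 1333 and 714 of all genes. Without experiment 1, 2 or 3, 5, 1 and 3 members rose and 11, 0 and 0 fell. From 2 to 4 h few members moved in either strain. In wild type FAA1 rose (log2 fold change 0.95, SE 0.21, adjusted p = 0.00676) and YAT1, a mitochondrial carnitine acetyltransferase gene, fell (log2 fold change -1.15, SE 0.32, adjusted p = 0.0256), against 5.21% and 5.7% of all genes. Scaling by total counts gave the same counts of 1 and 1, with 413 and 189 of all genes. In ZCZ01 PXA1 rose (log2 fold change 1.06, SE 0.29, adjusted p = 0.039) and no member fell (0 by edgeR and by DESeq2, 1 at an unadjusted p under 0.05), against 2.62% and 3.34% of all genes. Without experiment 1 the members that rose from 2 to 4 h numbered 4 in wild type and 8 in ZCZ01 and those that fell 5 and 1. That fit holds only experiments 2 and 3, which were close to each other, so its p values can be too small. Without experiment 2 or 3 the members that rose or fell numbered 0. Summing experiments 2 and 3 ended each of these calls from 2 to 4 h, with 0.91 (adjusted p = 0.196) for FAA1 and -0.93 (adjusted p = 0.388) for YAT1 in wild type and 1.07 (adjusted p = 0.301) for PXA1 in ZCZ01. The edgeR counts were then 0 and 0 in wild type (0.343% and 0.0722% of all genes) and 0 and 0 in ZCZ01 (0.0722% and 0.487%), with 2 and 2 and with 4 and 0 members at an unadjusted p under 0.05. YAT1 overlaps YAR035C-A on the opposite strand.

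**Figure D3:**
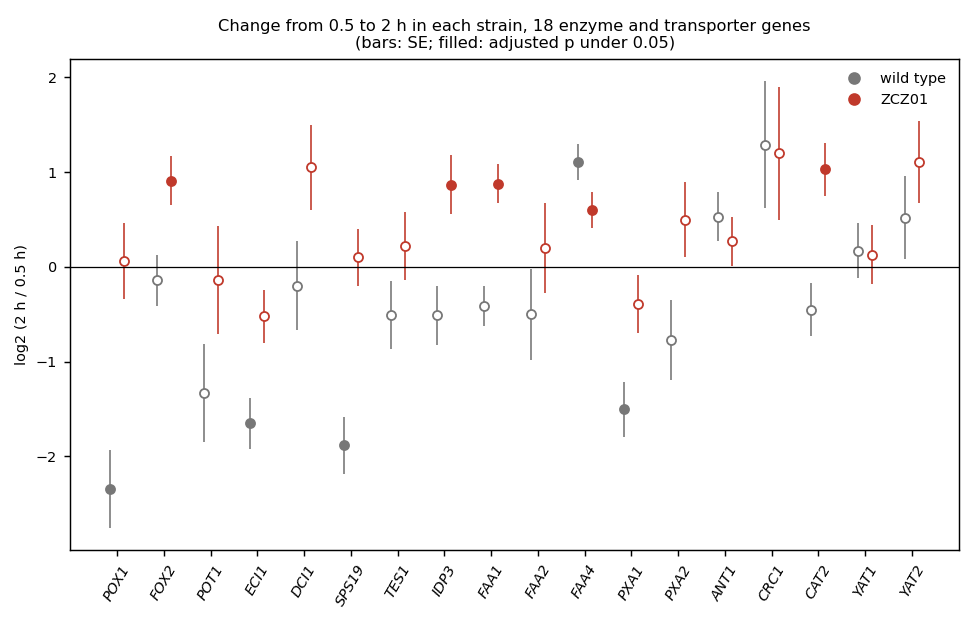
Log2 change from 0.5 to 2 h in wild type (grey) and ZCZ01 (red) for the 18 enzyme and transporter genes, with SE bars and filled points for an adjusted p under 0.05. In wild type POX1, ECI1, SPS19 and PXA1 fell and FAA4 rose, and in ZCZ01 FOX2, IDP3, FAA1, FAA4 and CAT2 rose.

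The change of the strain ratio between times was tested directly, on the libraries used above. From 0.5 to 2 h the ratio of ZCZ01 to wild type rose for 6 members (POX1, ECI1, SPS19, IDP3, FAA1 and CAT2) and fell for PEX14, where 12.6% of all genes rose and 18.5% fell. From 0.5 to 4 h it rose for 8 members (POX1, POT1, ECI1, SPS19, PXA1, PXA2, CAT2 and YAT2) and fell for 0, against 11.8% and 15.9% of all genes. By DESeq2 it also fell for 0 members, and 2 were lower at an unadjusted p under 0.05. From 2 to 4 h it rose for YAT2 and fell for FAA1 (7.2% and 6.82% of all genes). In this fit every change upward was in an enzyme or transporter gene. POX1, ECI1, SPS19, CAT2 and YAT2 rose in more than 1 interval, and the intervals share libraries. With scaling by total counts PEX4, PEX7 and PEX30 also rose from 0.5 to 2 h and PEX6 and PEX30 from 0.5 to 4 h. The median change from 0.5 to 4 h was 1.10 over the 18 enzymes and transporters, 0.18 over the 21 biogenesis genes and -0.08 over all genes. With experiments 2 and 3 summed, 4 members rose from 0.5 to 2 h (7.06% of all genes rose and 8.74% fell) and 5 from 0.5 to 4 h (5.51% and 6.37%), while from 2 to 4 h 0 rose and 0 fell (0.217% and 0.975%), with 1 and 1 at an unadjusted p under 0.05. No member fell in the other intervals in edgeR with these summed counts, and 1 and 0 were lower at an unadjusted p under 0.05. Scaling by total counts gave 11 higher and 0 lower from 0.5 to 2 h (928 and 697 of all genes) and 13 and 0 from 0.5 to 4 h (767 and 677), and moved the median of all genes from 0.5 to 2 h from -0.08 to 0.14. Without experiment 1, 2 or 3 the members that rose from 0.5 to 2 h numbered 5, 2 and 4, from 0.5 to 4 h 10, 5 and 5 and from 2 to 4 h 8, 0 and 0.

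At 2 h the members called higher in ZCZ01 were enzyme genes and most of those called lower were PEX genes. The counts were 5 higher (FOX2, SPS19, IDP3, FAA1 and CAT2) and 6 lower (FAA4, PEX5, PEX14, PEX2, PEX11 and PEX25), 5 of them PEX genes. Among all genes 18.8% were higher and 23.3% lower, so the counts of 5 and 6 of 41 are below the background in both directions. The share of biogenesis genes called lower was close to the 23.3% of all genes. The lower calls of PEX genes therefore do not set the biogenesis genes apart from the background. The median was 0.44 for the enzymes and transporters and -0.12 for the biogenesis genes, against -0.05 over all genes. The difference between these classes was not tested. Scaling by total counts gave 10 members higher and 3 lower, with 1315 and 976 of all genes and their median at 0.10, so the balance of directions at 2 h depends on the scaling. With experiments 2 and 3 summed, 0 were higher and 3 were lower (PEX14, PEX2 and PEX25), against 11.4% and 13% of all genes, and 6 were higher at an unadjusted p under 0.05. Without experiment 1, 2 or 3, 8, 0 and 1 members were higher and 10, 3 and 2 lower, again without the share of all genes in those fits.

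PEX2 encodes a RING subunit of the ubiquitin ligase that recycles the import receptors, and it was the only member called between the strains at all 3 times. At 2 h it was at 126, 93.5 and 89.0 CPM in wild type and 69.2, 33.3 and 30.6 CPM in ZCZ01, without overlap (log2 fold change -1.27, SE 0.18, adjusted p = 5.0e-05). At 0.5 h it was at 152, 177 and 179 against 76.1, 95.0 and 125 CPM (log2 fold change -0.80, SE 0.17, adjusted p = 0.00764). At 4 h experiment 1 was far above the others in both strains, with 158, 56.7 and 74.5 CPM in wild type and 96.7, 35.2 and 43.6 CPM in ZCZ01. The ranges overlapped, while ZCZ01 was lower within each experiment (log2 fold change -0.72, SE 0.18, adjusted p = 0.00471). Counting alternatives fitted with the library-name times, the 2 h call was kept under 12 of 12, the 0.5 h call under 6 of 12 and the 4 h call under 7 of 12. At 0.5 h it was lost without experiment 2 (-0.77, adjusted p = 0.172) and without experiment 3 (-0.97, adjusted p = 0.0839), and at 4 h without experiment 2 (-0.73, adjusted p = 0.0532) and without experiment 3 (-0.67, adjusted p = 0.082). PEX10, the other RING ligase gene among the members, was at -0.04 (SE 0.29, adjusted p = 0.919) at 2 h.

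PEX25 and PEX11 encode membrane proteins that promote peroxisome growth and division. PEX25 was at 66.6, 59.95 and 74.6 CPM in wild type and 40.98, 27.2 and 31.7 CPM in ZCZ01 at 2 h, without overlap (log2 fold change -1.01, SE 0.19, adjusted p = 5.9e-04). This call was kept under 12 of 12 alternatives with those times. PEX11 was at 94.2, 83.9 and 68.0 and 91.9, 39.4 and 31.7 CPM (log2 fold change -0.69, SE 0.21, adjusted p = 0.0157). Experiment 1 hardly differed between the strains for PEX11, the ranges overlapped, and the value with experiments 2 and 3 summed was -0.52 (adjusted p = 0.184). It did not pass without experiment 2 (-0.50, adjusted p = 0.22) and without experiment 3 (-0.48, adjusted p = 0.264). PEX27, the third gene of this family, was at -0.47 (SE 0.36, adjusted p = 0.312).

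PEX14 and PEX5 encode a subunit of the docking complex and the receptor for proteins with the C-terminal targeting signal. PEX14 at 2 h was at 55.7, 67.9 and 74.0 CPM in wild type and 27.7, 44.7 and 31.7 CPM in ZCZ01 (log2 fold change -0.95, SE 0.19, adjusted p = 7.7e-04), and the ranges did not overlap. It was also lower at 4 h (log2 fold change -0.57, SE 0.18, adjusted p = 0.0194), at 56.5 to 80.3 and 35.4 to 54.7 CPM. PEX5 was lower at both times, at -0.67 (SE 0.21, adjusted p = 0.0185) and -0.87 (SE 0.21, adjusted p = 0.00374). At 4 h its libraries were at 33.7, 65.3 and 52.3 CPM in wild type and 19.1, 33.8 and 28.9 CPM in ZCZ01, where experiment 1 was low in both strains and each experiment showed the same direction. For PEX14 the 2 h call was lost without experiment 3 (-0.77, adjusted p = 0.0633) and the 4 h call without experiment 2 (-0.60, adjusted p = 0.105) and without experiment 3 (-0.55, adjusted p = 0.168). For PEX5 the 2 h call was lost without experiment 2 (-0.45, adjusted p = 0.322) and without experiment 3 (-0.88, adjusted p = 0.0639) and the 4 h call without experiment 2 (-0.83, adjusted p = 0.0606) and without experiment 3 (-0.86, adjusted p = 0.0629). The other docking genes, PEX13 and PEX17, and the receptor genes PEX7 and PEX21 were not called at any time.

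**Figure D4:**
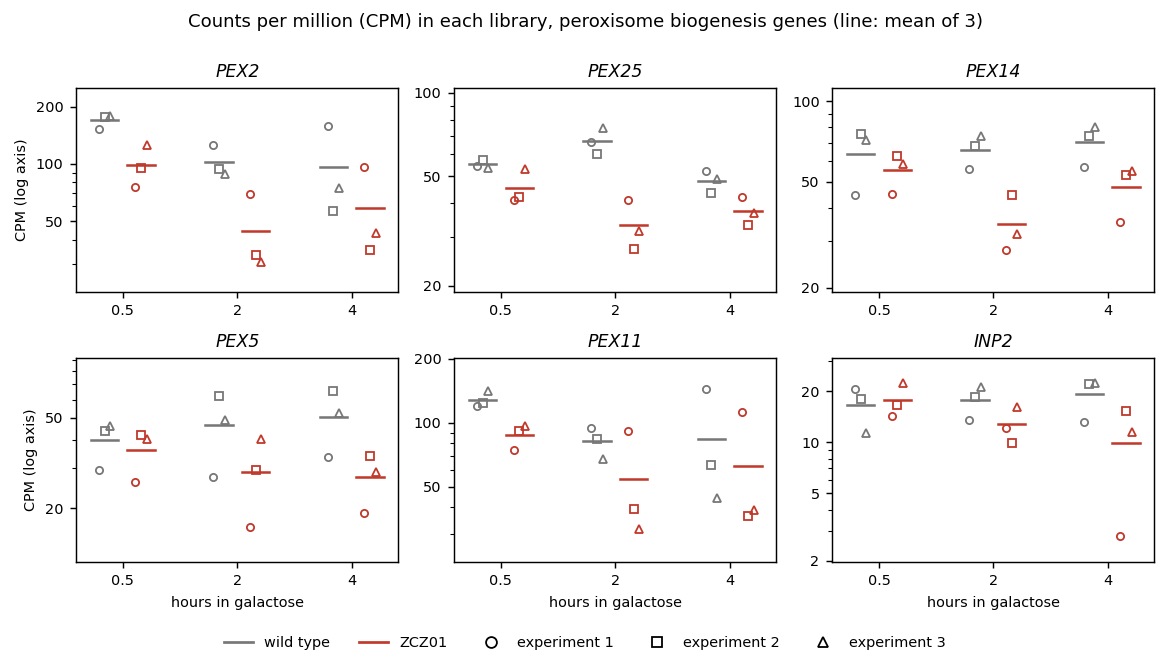
CPM (log axis) of 6 peroxisome biogenesis genes in each library by hours in galactose, drawn as for the enzyme genes. At 2 h the ZCZ01 libraries of PEX2, PEX25 and PEX14 lie below all wild type libraries, and for PEX2 and PEX11 experiment 1 (circles) stands above the other experiments at 4 h.

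At 4 h the members called higher in ZCZ01 were genes of beta-oxidation, fatty acid transport and the carnitine shuttle. The counts were 5 higher (POT1, FOX2, PXA2, CAT2 and YAT2) and 5 lower (FAA1, PEX5, PEX14, PEX2 and INP2), against 20% and 21.6% of all genes, so again below the background in number. The highest estimates were those of POT1, YAT2, PXA2 and CAT2. With experiments 2 and 3 summed, PXA2, CAT2 and YAT2 remained higher and PEX5 lower, that is 3 and 1 members, against 12.3% and 13.1% of all genes. Without experiment 1, 2 or 3, 8, 3 and 3 members were higher and 7, 0 and 0 lower.

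YAT2 and CAT2 encode carnitine acetyltransferases, which pass acetyl units to carnitine for transport into mitochondria. YAT2 at 4 h was at 62.5, 19.2 and 30.1 CPM in wild type and 229, 137 and 171 CPM in ZCZ01, with the lowest ZCZ01 library above the highest wild type one (log2 fold change 2.33, SE 0.32, adjusted p = 9.5e-05). At 2 h it was at 34.0, 118 and 117 and 122, 119.6 and 122 CPM, where only experiment 1 showed a clear difference (log2 fold change 0.58, SE 0.30, adjusted p = 0.14). CAT2 at 4 h was at 13.2, 13.4 and 12.2 and 29.2, 37.3 and 33.6 CPM, without overlap (log2 fold change 1.35, SE 0.32, adjusted p = 0.0034). It was already called higher at 2 h (log2 fold change 0.82, SE 0.30, adjusted p = 0.0401), at 11.5, 28.0 and 21.1 and 33.8, 37.1 and 31.7 CPM, a call lost without experiment 1 (0.54, adjusted p = 0.109), without experiment 2 (1.07, adjusted p = 0.0777) and without experiment 3 (0.98, adjusted p = 0.0976). The other carnitine genes, CRC1 for the mitochondrial carrier and YAT1, did not pass between the strains at any time, and CRC1 had 1 to 19 counts a library.

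PXA2, the partner of PXA1 in the fatty acid transporter, was at 7.82, 6.73 and 9.32 CPM in wild type and 21.4, 29.0 and 28.4 CPM in ZCZ01 at 4 h (log2 fold change 1.69, SE 0.38, adjusted p = 0.0023). The groups were well separated, and the call was kept under 11 of 11 alternatives with the times of the library names. FOX2, encoding the enzyme of the middle steps of the cycle, was higher at 2 h (log2 fold change 0.78, SE 0.27, adjusted p = 0.03) and at 4 h (log2 fold change 0.74, SE 0.25, adjusted p = 0.0275). Its libraries at 4 h were at 21.0, 34.6 and 28.7 CPM in wild type and 40.5, 49.0 and 48.9 CPM in ZCZ01. The 2 h call was lost without experiment 2 (0.71, adjusted p = 0.189) and without experiment 3 (0.99, adjusted p = 0.0726), and the 4 h call without experiment 2 (0.86, adjusted p = 0.0916) and without experiment 3 (0.75, adjusted p = 0.14). At 0.5 h the ranges of FOX2 overlapped (15.6 to 21.5 CPM in wild type and 9.28 to 24.8 CPM in ZCZ01).

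FAA1, which encodes the main acyl-CoA synthetase for imported long-chain fatty acids, was the member that turned from higher to lower. At 2 h it was at 79.4, 48.0 and 49.9 CPM in wild type and 86.4, 133 and 113 CPM in ZCZ01 (log2 fold change 0.90, SE 0.22, adjusted p = 0.00422). At 4 h it was at 134, 110.5 and 98.2 and 67.5, 80.1 and 72.5 CPM (log2 fold change -0.63, SE 0.22, adjusted p = 0.0284). The ranges did not overlap at either time, and the change of the ratio was itself called (log2 fold change -1.54, SE 0.31, adjusted p = 0.00462), but not with experiments 2 and 3 summed, -1.46 (adjusted p = 0.0936). The 2 h call was lost without experiment 2 (0.67, adjusted p = 0.0899) and without experiment 3 (0.81, adjusted p = 0.0787), and the 4 h call without experiment 2 (-0.70, adjusted p = 0.0707) and without experiment 3 (-0.70, adjusted p = 0.114). FAA4, its close relative, was slightly lower at 2 h (log2 fold change -0.46, SE 0.17, adjusted p = 0.0346), a call kept under 2 of 12 alternatives with the times of the library names. INP2, encoding the receptor that links peroxisomes to the myosin Myo2 for transport to the bud, was lower at 4 h (log2 fold change -1.09, SE 0.39, adjusted p = 0.0355), at 13.2, 22.1 and 22.2 CPM in wild type and 2.81, 15.2 and 11.6 CPM in ZCZ01. These ranges overlapped, the lowest value rests on 5 counts, and the call was lost without experiment 1 (-0.77, adjusted p = 0.0745), without experiment 2 (-1.42, adjusted p = 0.064) and without experiment 3 (-1.18, adjusted p = 0.144).

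The 2 regulators did not pass between the strains. OAF1, which encodes the oleate-sensing subunit, was at 24.5 to 29.4, 14.4 to 31.9 and 23.4 to 41.3 CPM in wild type at 0.5, 2 and 4 h and at 23.5 to 36.4, 15.5 to 45.6 and 35.4 to 46.3 CPM in ZCZ01, with estimates of 0.19, 0.37 and 0.40. PIP2, encoding its partner and itself a gene with an oleate response element, was at 4.48, 3.20 and 6.01 CPM in wild type and 9.41, 15.9 and 12.1 CPM in ZCZ01 at 2 h. The 3 ZCZ01 libraries were all above wild type, on 4 to 21 counts a library, and the difference did not pass the test (log2 fold change 1.39, SE 0.55, adjusted p = 0.0527). With other scalings it passed, at an adjusted p of 0.0461 with DESeq2 size factors and 0.0354 with total counts. With experiments 2 and 3 summed it did not pass, at 1.36 (adjusted p = 0.14). Its estimates at 0.5 and 4 h were -0.44 and 1.02.

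IDP3, encoding the peroxisomal isocitrate dehydrogenase that supplies NADPH to Sps19, was higher at 2 h (log2 fold change 0.84, SE 0.26, adjusted p = 0.0166), at 13.4, 20.8 and 14.4 CPM in wild type and 27.7, 44.7 and 18.5 CPM in ZCZ01. The ranges overlapped, and this call was lost without experiment 2 (0.73, adjusted p = 0.189). Over the 3 times, 18 of the 41 members were called at least once between the strains (43.9%), against 61.2% of all genes tested. SPS19 and FAA1 were called in both directions. The 23 members called at no time were DCI1, TES1, FAA2 and ANT1, the carnitine genes CRC1 and YAT1, both regulators, INP1 and 14 PEX genes. Their estimates lay between -0.69 and 0.20 at 0.5 h, between -0.68 and 1.39 at 2 h and between -1.16 and 1.02 at 4 h. The lowest of these was PEX17 at 4 h, -1.16 (SE 0.46, adjusted p = 0.0542). PEX3 and PEX19, which insert membrane proteins, stayed between -0.25 and 0.25 at all times without passing the test. FAA2, ANT1 and PEX15 each overlap a gene on the opposite strand.

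**Figure D5:**
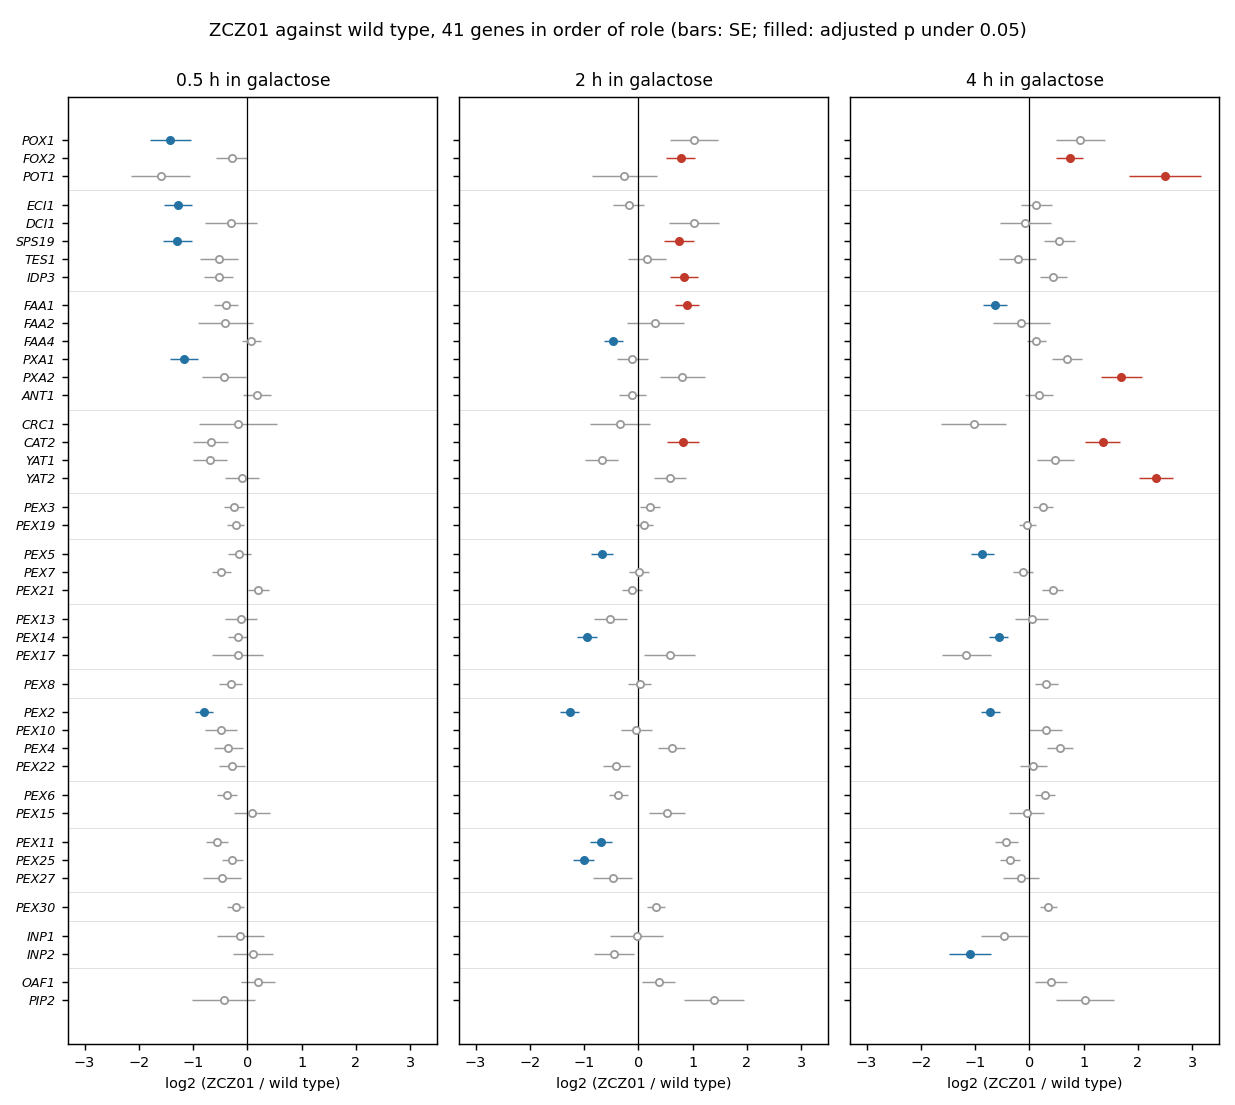
Log2 ratio of ZCZ01 to wild type for the 41 members at 0.5, 2 and 4 h, in order of role and separated by lines between roles, with SE bars. Filled red and blue points mark members higher and lower at an adjusted p under 0.05, and at 0.5 h the 5 called members are all lower, while at 4 h the rightmost points are POT1, YAT2, PXA2 and CAT2.

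Genes of the same organelle and pathway outside the 41 were described from 4 lists, as log2 fold changes of ZCZ01 against wild type. The shares of all genes called higher and lower were 4.92% and 2.52% at 0.5 h, then 18.8% and 23.3% at 2 h, and 20% with 21.6% at 4 h. Of 11 other peroxins and fission genes, 2 were higher and 1 lower at 2 h and 2 higher at 4 h, and 1 was higher at each of these times with experiments 2 and 3 summed. PEX18, a co-receptor for the N-terminal targeting signal, was at 2.38 (SE 0.41, adjusted p = 2.7e-04) at 2 h. PEX34, a peroxisome number factor, was at 1.14 (SE 0.21, adjusted p = 4.1e-04) at 4 h, and VPS1, the dynamin-like fission gene, at -0.42 (SE 0.13, adjusted p = 0.0172) at 2 h. Of 18 other peroxisomal and fatty acid enzyme genes, 0 were higher and 2 lower at 0.5 h, 6 and 3 at 2 h and 7 and 7 at 4 h, and summing gave 0 and 0, 4 and 1, and 6 and 3. CTA1, encoding the catalase that removes the peroxide made by Pox1, was at -2.15 (SE 0.46, adjusted p = 0.00866) at 0.5 h and 3.41 (SE 0.46, adjusted p = 2.5e-05) at 4 h, where its wild type libraries held 7, 7 and 2 counts. CIT2 and MLS1, the peroxisomal citrate synthase and the malate synthase of the glyoxylate cycle, were at 3.09 (SE 0.27, adjusted p = 3.7e-07) and 2.89 (SE 0.40, adjusted p = 3.7e-05) at 4 h. AGP2, a plasma membrane protein needed for carnitine uptake, was at -2.94 (SE 0.80, adjusted p = 0.00808) at 4 h.

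Of 7 other regulators, 0 were higher and 1 lower at 0.5 h, 1 and 3 at 2 h and 1 and 2 at 4 h, and summing gave 0 and 0, 1 and 2, and 0 and 1. ADR1, the activator that acts with Oaf1 and Pip2, was lower at 2 h, at -1.05 (SE 0.37, adjusted p = 0.0312), as was CAT8, an activator of genes for growth without glucose, at -2.90 (SE 0.29, adjusted p = 1.3e-06). SNF4, a subunit of the Snf1 kinase, was at -1.07 (SE 0.16, adjusted p = 8.2e-05), and MIG2, a glucose repressor gene, was higher, at 2.06 (SE 0.58, adjusted p = 0.01). Of 8 fatty acid synthesis genes, 0 were higher and 1 lower at 0.5 h, 0 and 7 at 2 h, and 3 and 3 at 4 h, and summing gave 0 and 0, 0 and 5, and 3 and 3. ACC1, acetyl-CoA carboxylase, was at -0.90 (SE 0.19, adjusted p = 0.00129) at 2 h and 0.84 (SE 0.19, adjusted p = 0.00207) at 4 h, while the elongase genes ELO1, FEN1 and SUR4 were at -2.08 (SE 0.14, adjusted p = 1.6e-08), -1.38 (SE 0.15, adjusted p = 3.4e-06) and -0.99 (SE 0.15, adjusted p = 8.3e-05) at 4 h.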

How the data were processed

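RNA of 18 samples was sequenced by QuantSeq, which counts the 3′ ends of transcripts (single reads of 75 nt). The authors deposited counts per gene in 3 tables, 1 for each experiment. Bowtie2 is named in the submitters' processing notes; the counting tool, strand setting and build are not given in the sources used here. The 6692 features were matched to the R64 annotation (6003 matched, 97.74 to 98.57% of counts), and 5994 span the gene and 100 nt downstream. Labels do not say whether experiments were separate cultures, so p values may measure technical spread.

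Counts were fitted with edgeR 4.0.16 (R 4.3.3), TMM scaling, filterByExpr, and 1 block for each of 9 pairs of strains of the same experiment and time. The pairing rests on the shared experiment number and time, and the study also used a paired test. Samples of a pair deviated together from their group means (Pearson's r 0.550 to 0.827 across genes). Samples of different times were not compared in this way, so these values cannot tell a block for each pair from 1 block per experiment. Changes within a strain had the experiment as block. Depth, 955972 to 1920193 counts, limits members with few counts. Tests were checked on simulated counts. Each simulated library was drawn independently, so the check does not cover the likeness of experiments 2 and 3. Alternatives were DESeq2 1.42.0, other scalings, filters and blocks, each experiment left out, and experiments 2 and 3 summed. SE is the log2 fold change divided by the square root of F. By rule, values in every library were given for members that passed at 1 or more times with at least a 2-fold change in the same direction in all 3 experiments (up to 20), and for OAF1 and PIP2; other called members were given values in libraries after their results were seen. Of each other list, up to 4 genes with the largest called change are named. The members and lists were chosen with earlier results of these data known.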

Additional observations from a re-analysis of the deposited data

Results flagged for a closer look

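The ratio of ZCZ01 to wild type differed between times, by the direct test in edgeR, for 12 members, and these values are given as log2 changes. From 0.5 to 2 h the ratio changed by 2.45 for POX1, 2.04 for SPS19, 1.49 for CAT2, 1.37 for IDP3, 1.29 for FAA1, 1.10 for ECI1 and -0.76 for PEX14. From 0.5 to 4 h it changed by 4.09 for POT1, 2.43 for YAT2, 2.36 for POX1, 2.11 for PXA2, 2.02 for CAT2, 1.86 for PXA1, 1.84 for SPS19 and 1.41 for ECI1. From 2 to 4 h it changed by 1.75 for YAT2 and -1.54 for FAA1. The changes of SPS19 in both of its intervals, of POX1 from 0.5 to 2 h and of PXA1, CAT2 and YAT2 from 0.5 to 4 h kept their call under the 10 or 11 alternatives run with the times of the library names, and that of PEX14 was kept under 2 of 11. From 0.5 to 2 h, IDP3 kept its call under 9 of 10 and CAT2 under 8 of 10. FAA1 kept it under 8 of 11 and ECI1 under 5 of 11. From 0.5 to 4 h, POX1 kept it under 9 of 10 and PXA2 under 8 of 10. POT1 did so under 7 of 10 and ECI1 under 8 of 11. From 2 to 4 h, YAT2 kept it under 6 of 11 and FAA1 under 8 of 11. With experiments 2 and 3 summed, POT1, PXA2 and ECI1 did not pass from 0.5 to 4 h (adjusted p = 0.081, 0.0518 and 0.0675).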

How the results depend on the processing

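With the shared experiment number ignored (no replicate block), members called lower at 0.5 h numbered 3 rather than 5, at 2 h 3 were higher and 3 lower, and at 4 h 1 was lower. Without the block 0 members fell in ratio from 0.5 to 2 h, 0 rose in ratio from 2 to 4 h, 0 fell in wild type from 2 to 4 h, 0 fell in ZCZ01 from 0.5 to 2 h and 0 rose in ZCZ01 from 2 to 4 h. With 1 block per experiment, 3 were lower at 4 h, 2 fell in ratio from 0.5 to 2 h and 0 rose from 2 to 4 h. With each time fitted alone, 2 were lower at 0.5 h and 3 at 2 h. DESeq2 called 3 higher at 2 h, 2 lower at 4 h, 0 falling in ratio from 0.5 to 2 h, 2 rising in ratio from 2 to 4 h and 2 falling in wild type from 2 to 4 h. A mean of at least 50 counts, which tests fewer members, left 3 higher at 2 h, 3 higher at 4 h, 0 falling in ratio from 0.5 to 2 h and 3 rising in ZCZ01 from 0.5 to 2 h. DESeq2 size factors and total counts each left 0 falling in ratio from 0.5 to 2 h, and total counts gave 10 higher and 3 lower at 2 h and 11 and 13 rising in ratio to 2 and 4 h. Where no construction of the alternative shows it, the cause was not tested.

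With experiments 2 and 3 summed, 0 were lower at 0.5 h, 0 higher and 3 lower at 2 h, and 3 higher and 1 lower at 4 h. From 0.5 to 4 h, 5 rose in ratio, and 0 fell from 0.5 to 2 h. From 2 to 4 h, 0 rose or fell in ratio or in wild type and 0 rose in ZCZ01, while from 0.5 to 2 h 1 rose and 0 fell in ZCZ01 and 1 rose and 4 fell in wild type. The times of the titles gave 0 members in each direction at each time. Counts with 1 experiment left out are given without the share of all genes. They come from fits with fewer libraries, so calls can be lost for that reason alone. With experiment 1 left out only experiments 2 and 3 remain, which were close to each other, so p values can be too small. Leaving out 1 experiment in turn gave 0 to 8 lower at 0.5 h. At 2 h it gave 0 to 8 higher and 2 to 10 lower, and at 4 h 3 to 8 and 0 to 7. In ratio it gave 2 to 5 rising and 0 to 4 falling from 0.5 to 2 h, 0 to 8 and 0 to 3 from 2 to 4 h, and 5 to 10 and 0 to 2 from 0.5 to 4 h. In wild type it gave 0 to 3 rising and 4 to 12 falling from 0.5 to 2 h, and 0 to 4 and 0 to 5 from 2 to 4 h. In ZCZ01 it gave 1 to 5 and 0 to 11 from 0.5 to 2 h, and 0 to 8 and 0 to 1 from 2 to 4 h. Values under alternatives were compared for called results and for all comparisons of the members named by rule, OAF1 and PIP2. Of these values 1389 stayed on the same side of the threshold, 178 no longer passed, 49 newly passed and 0 reversed a called direction. The 1389 include values called in neither fit, whose direction was not compared. The calls of YAT2 at 4 h and of PEX2 and PEX25 at 2 h were kept under 12 of 12 alternatives with the times of the library names, and those of PXA2 and CAT2 at 4 h under 11 of 11. Half-sites 7 to 14 bases apart gave 16 members with an oleate response element, and the window of 500 bases, chosen after seeing the data, gave 17. Members with few counts, such as CRC1, PIP2 and DCI1, are limited by depth.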
